A study of Mus musculus with 6 samples.

Results

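Hepatocyte growth factor (Hgf), its receptor Met, 5 fibroblast growth factors (Fgf1, Fgf2, Fgf7, Fgf9 and Fgf10) and 3 of their receptors (Fgfr1, Fgfr2 and Fgfr3) were followed in the colon of Islr knockout and control mice. These 10 genes were chosen by name, with earlier results of these data known, out of 23462 genes that could be named on the array. All 21 of their probes were examined. The product of Islr is secreted and carries leucine-rich repeats and an immunoglobulin-like domain. RNA came from the colon of 3 control and 3 Islr knockout males, with 1 single-colour Agilent array for each animal. The sample source states that all 6 animals drank 3.5% dextran sulfate sodium, which injures the colonic epithelium, for 5 days and recovered for 1 day, whereas a treatment field of the same labels states none. The labels name the genotypes only as Control and Islr knockout, and neither the strain, the age nor the cells in which Islr was deleted is stated there.

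HGF is secreted by stromal cells as an inactive precursor, is cut by serine proteases and then binds MET, a receptor tyrosine kinase of epithelial cells that drives their migration, survival and growth. FGF7 and FGF10 are likewise made by mesenchymal cells and act on epithelium through a splice form of FGFR2, whereas FGF1, FGF2 and FGF9 bind a broader range of FGF receptors. FGFs need heparan sulfate to bind their receptors stably. Both pathways run through RAS and ERK and switch on their own inhibitors, among them the Sprouty genes.

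Each level below is the log2 processed signal of a probe minus the log2 75th percentile of signal on that array, so that 0 is that percentile, and each difference is knockout minus control on this scale. Levels of different probes are not comparable. A probe was called when its adjusted p in limma was under 0.05 over all 35351 tested probes. Spots that the scanner software marked as outliers were left out of the test, and such values are pointed out where they are given. Between 69.4% and 75.4% of the spots of an array were well above background. The 11 epithelial markers, Epcam and Krt20 among them, were well above background on all 6 arrays, and so were the 12 fibroblast and 8 smooth muscle markers, although the design text mentions a flow separation of the samples. The same held for 5 of 5 T cell, 5 of 5 mesothelium and 6 of 8 skeletal muscle markers. Presence above background therefore does not check the tissue label. The Islr probe lay at 1.57 (an outlier spot), 1.24 and 1.21 in controls and at -1.40, -0.93 and -1.31 in knockouts, a 5.42-fold lower signal (difference -2.44, SE 0.21, adjusted p 0.0171 in limma). Without knockout replicate 3 the adjusted p of Islr was 0.0580. The 2 genotypes occupied different rows of the slide, so row and genotype cannot be told apart.

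Hgf and Fgf7 fell in the knockout colon, 1 probe of Fgf1 rose, and no receptor probe passed the test as reported. Probes of Met and Fgfr1 did pass under some alternative settings. Hgf was 8.27-fold lower at the probe that was well above background on all 6 arrays, its other probe was called lower too, and Fgf7 was 7.57-fold lower, while the Fgf1 probe was 3.21-fold higher. In these bulk samples, fewer cells of a type and less RNA per cell cannot be told apart. Of the 21 probes 18 could be tested, at least 1 for each of the 10 genes, and 4 were called, against 3.97% of all tested probes. Of the 18, 3 were called lower (2.42% of all tested probes) and 1 was called higher (1.55%). At any size 10 of the 18 were lower and 8 higher, against 50% of all tested probes lower. The 4 called probes were among the 9 tested ligand probes, and 0 of the 9 tested receptor probes were called, with 6 of those 9 at an unadjusted p under 0.05 in limma (26.8% of all tested probes). In 14 of the 18 tested probes the groups did not overlap, with outlier spots kept, against 34.9% of all tested probes. The median difference of the 18 was -0.57, against 5.75e-05 over all tested probes. Because the genes were chosen with earlier results known, the shares of all tested probes give scale only and test no excess. The counts and the median also rest partly on the filter. Of the 18 probes 4, all of them lower (1 each of Hgf, which was called, and Fgf2 and 2 of Fgfr1), were tested only because all controls were well above background. Among the 14 that were so on all 6 arrays 6 were lower and 8 higher, 2 were called lower and 1 higher, and the median was 0.25.

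**Figure D1:**
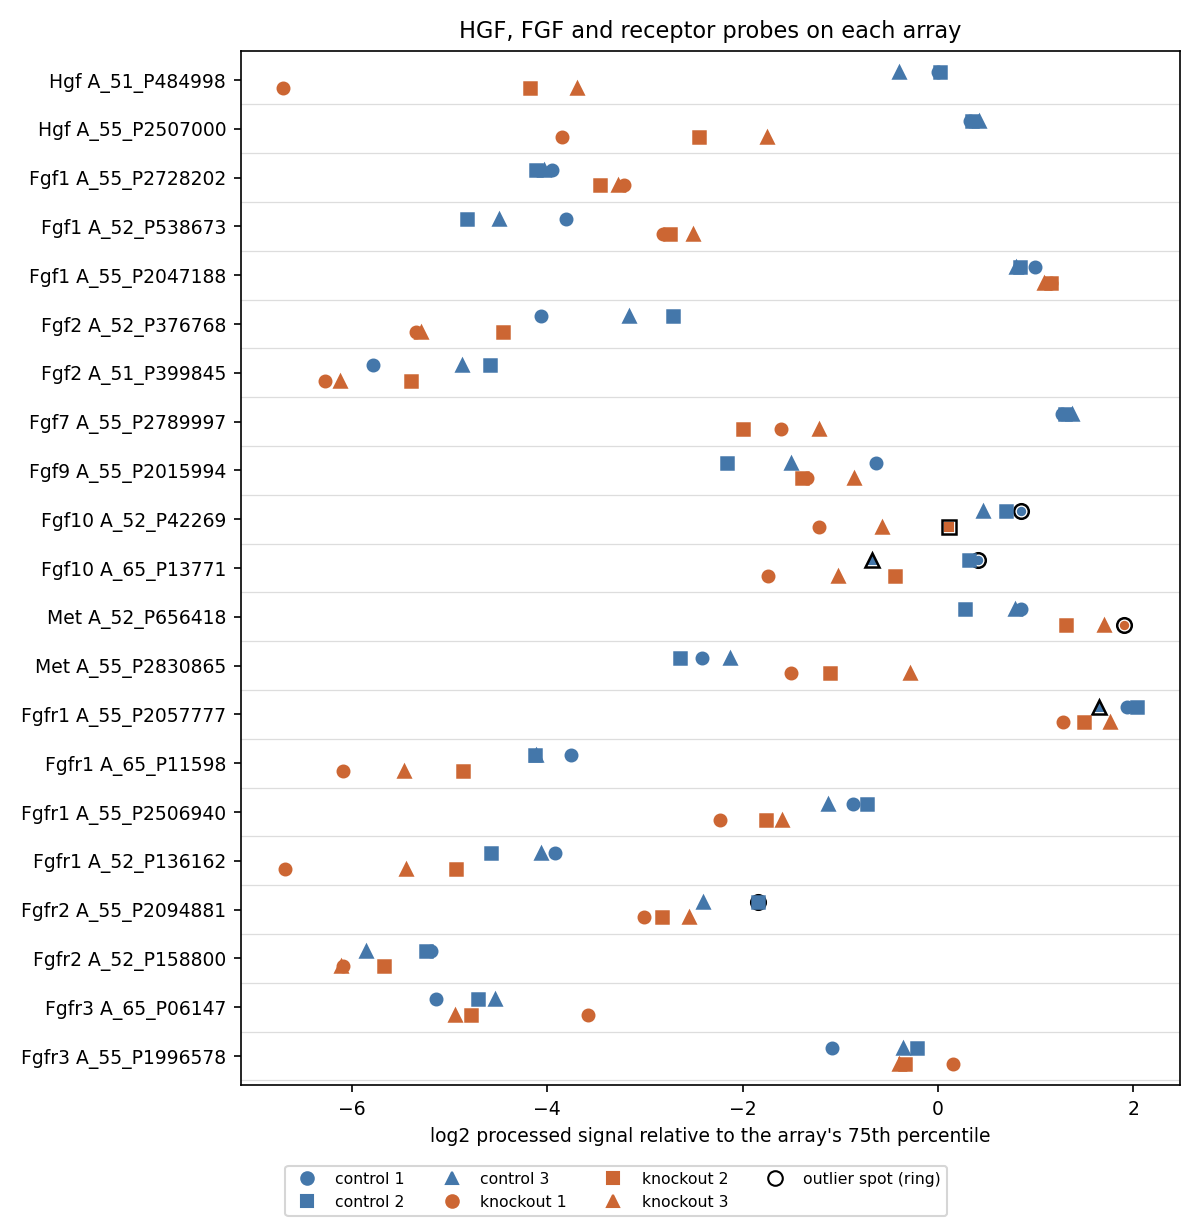
Level of each of the 21 probes on each of the 6 arrays, in log2 units above or below the 75th percentile of that array; colours give the genotype, symbols the replicate and black rings the outlier spots. Control and knockout symbols lie apart at both Hgf probes and at the Fgf7 probe, and they interleave at Fgf9 and at both Fgfr3 probes.

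**Figure D2:**
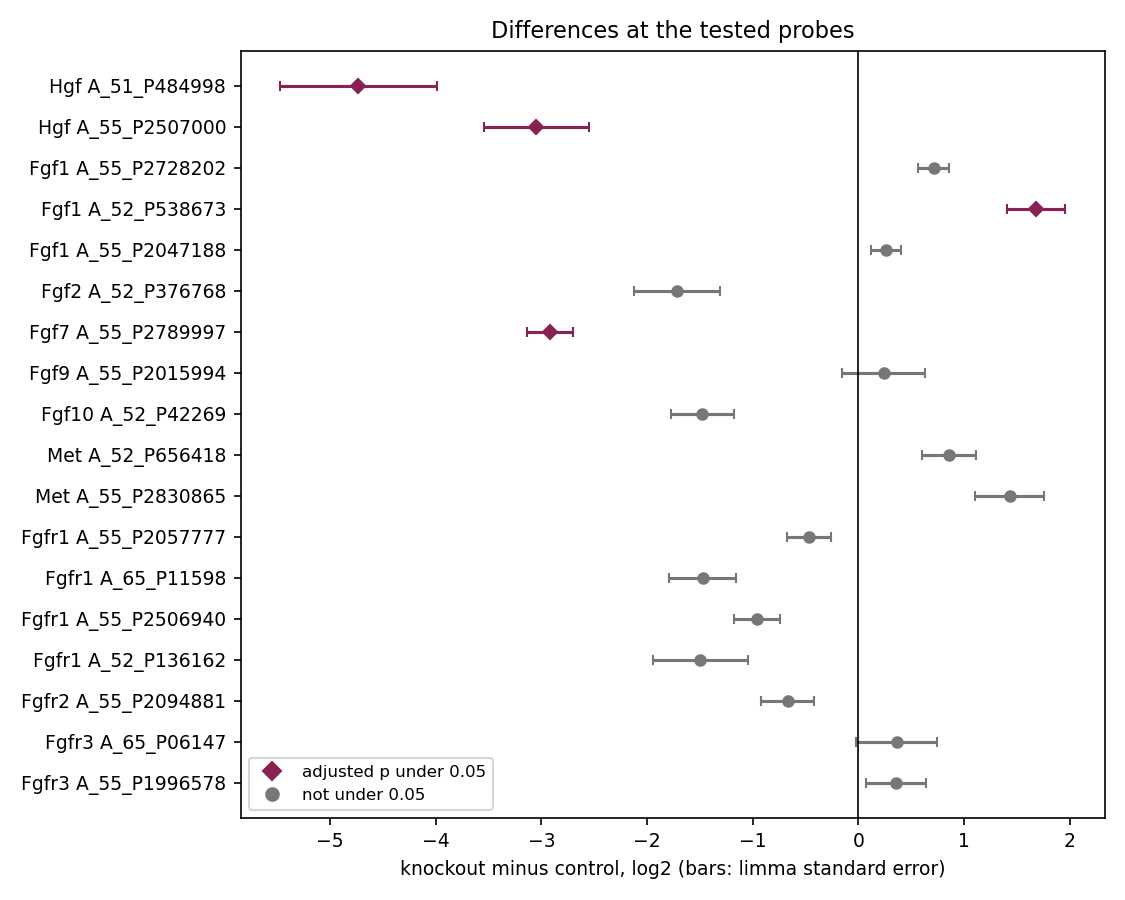
Knockout minus control on the log2 scale, with the moderated standard error of limma, at the 18 tested probes; diamonds mark an adjusted p under 0.05. The Hgf and Fgf7 probes lie between -4.73 and -2.92 and the called Fgf1 probe at 1.68.

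Hgf was measured by a pair of probes. The brighter one (A_55_P2507000) lay at 0.33, 0.35 and 0.42 in control replicates 1, 2 and 3 and at -3.85, -2.45 and -1.75 in the knockouts. Controls were tightly grouped and every knockout lay below them, with knockout replicate 1 lowest. The difference was -3.05 (SE 0.50, adjusted p 0.0357 in limma). Taken one at a time, the knockouts were 18.5-fold, 7.04-fold and 4.33-fold below the control mean. The dimmer probe (A_51_P484998) lay at -0.0033, 0.026 and -0.39 in controls and at -6.70, -4.17 and -3.69 in knockouts, again without overlap. It was not well above background in knockout replicate 1, so the size of its fall (-4.73, SE 0.74, adjusted p 0.0339 in limma) is uncertain. The dimmer probe fell further than the brighter one on every knockout array. The gap between them was -0.33, -0.32 and -0.82 in controls and -2.86, -1.72 and -1.94 in knockouts (exact permutation p = 0.1, the smallest that 3 against 3 can give). Both calls were lost without control replicate 2, control replicate 3 or knockout replicate 3, and without the filter on dim probes (adjusted p 0.0531 to 0.0956; over all alternatives 0.00853 to 0.0956). Without knockout replicate 1 the differences were -2.47 and -3.81, and both stayed called.

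Fgf7, also named keratinocyte growth factor, had 1 probe (A_55_P2789997). It lay at 1.27, 1.31 and 1.37 in controls and at -1.61, -1.99 and -1.21 in knockouts. The controls spanned a narrow range, all 3 knockouts lay well below it, and here knockout replicate 2 and not replicate 1 was lowest. The difference was -2.92 (SE 0.22, adjusted p 0.00930 in limma). Fgf7 was the one member called in all 15 alternative settings, with differences from -3.12 to -2.73 and adjusted p from 0.00394 to 0.0442.

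Fgf10, the closest relative of Fgf7 among the members in receptor use, did not pass. Its testable probe (A_52_P42269) lay at 0.85 (an outlier spot), 0.70 and 0.47 in controls and at -1.21, 0.11 (an outlier spot) and -0.58 in knockouts. The groups did not overlap, and the knockout nearest to the controls was replicate 2. From the 2 usable values in each group the difference was -1.48 (SE 0.29, adjusted p 0.0664 in limma), and with outlier spots kept it was -1.23. A further probe (A_65_P13771) had 1 usable control value and was not tested. With outlier spots kept it lay at 0.41, 0.32 and -0.67 in controls and at -1.74, -0.44 and -1.03 in knockouts, where control replicate 3 fell among the knockouts.

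The stretches just upstream of the transcription starts of Hgf and Fgf7, which fell in the knockout colon, are shown to let the promoters of the pair be compared. The sequences are from RefSeq on GRCm38.p6, the 250 bases before the start (for Hgf the outer of 2 listed starts), 5′ to 3′ on the plus strand, and capitals would mark a motif match.
Hgf, chr5:16553245-16553494: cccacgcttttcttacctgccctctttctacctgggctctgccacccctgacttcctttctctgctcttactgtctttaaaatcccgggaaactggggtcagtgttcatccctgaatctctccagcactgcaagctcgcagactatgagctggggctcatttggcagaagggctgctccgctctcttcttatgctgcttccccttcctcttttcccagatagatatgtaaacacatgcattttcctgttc
Fgf7, chr2:126034408-126034657: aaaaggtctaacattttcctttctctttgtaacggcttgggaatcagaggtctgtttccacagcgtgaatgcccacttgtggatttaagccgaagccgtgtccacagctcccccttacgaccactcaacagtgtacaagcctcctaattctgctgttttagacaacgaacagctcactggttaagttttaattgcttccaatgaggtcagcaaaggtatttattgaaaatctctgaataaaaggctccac
Neither stretch holds the TEAD core GGAATG, the AP-1 site TGANTCA or the TATA box TATAAA on either strand, so no letter is in capitals. These letters occur in 12.6%, 6.75% and 12.4% of the 32851 stretches of the same length. The absence concerns these letters in this window only. G and C made up 50.8% of the Hgf stretch and 43.6% of that of Fgf7. Of the 10 genes 8 had a promoter entry after the entries of a single chromosome were left out. A gene not counted may therefore still have one.

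Fgf1, which binds all FGF receptors, was the one member with a call in the other direction, and its 3 probes differed in the size of the difference. The called probe (A_52_P538673) lay at -3.81, -4.83 and -4.49 in controls and at -2.82, -2.75 and -2.51 in knockouts, with all knockouts above all controls. The difference was 1.68 (SE 0.28, adjusted p 0.0362 in limma). A second probe (A_55_P2728202) went from -3.95, -4.12 and -4.03 to -3.22, -3.46 and -3.28, a difference of 0.71 (SE 0.15, adjusted p 0.0517 in limma). The brightest probe (A_55_P2047188) lay at 0.99, 0.84 and 0.80 in controls and at 1.16, 1.15 and 1.09 in knockouts. Its groups did not overlap either, yet the difference was 0.26 (SE 0.14, adjusted p 0.286 in limma). Within each array the called probe minus the brightest one was -4.80, -5.66 and -5.28 in controls and -3.97, -3.90 and -3.60 in knockouts, without overlap (exact permutation p = 0.1). The 3 probes carry the same RefSeq transcript, and the transcript forms each of them captures are not given in the sources used here. The call was lost when any array other than control replicate 1 was left out, and without the filter on dim probes (adjusted p 0.0541 to 0.0996; over all alternatives 0.00706 to 0.0996).

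Fgf2, a broadly acting FGF without a classical secretion signal, and Fgf9 did not pass. The brighter Fgf2 probe (A_52_P376768) lay at -4.06, -2.71 and -3.16 in controls and at -5.34, -4.45 and -5.29 in knockouts, where replicate 1 was not well above background. The groups did not overlap, but both were widely spread (difference -1.72, SE 0.40, adjusted p 0.0633 in limma). The dimmer Fgf2 probe was well above background in 2 controls and 1 knockout and was not tested. Fgf9 lay at -0.63, -2.16 and -1.51 in controls and at -1.34, -1.39 and -0.86 in knockouts. The control values enclosed all knockout values (difference 0.24, SE 0.39, adjusted p 0.730 in limma), and the difference was -0.13 without control replicate 2.

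Met, the HGF receptor, was higher in every knockout than in every control at both probes, and neither difference passed. The brighter probe (A_52_P656418) lay at 0.85, 0.28 and 0.79 in controls and at 1.90 (an outlier spot), 1.31 and 1.7 in knockouts, with a difference of 0.86 (SE 0.26, adjusted p 0.106 in limma). The dimmer probe (A_55_P2830865) lay at -2.42, -2.64 and -2.13 in controls and at -1.5, -1.11 and -0.29 in knockouts, with a difference of 1.43 (SE 0.33, adjusted p 0.0600 in limma). It passed in 5 of 15 alternative settings and the brighter probe in 1 of 13. With a single array left out neither probe passed, but the brighter one could be tested in only 4 of these 6 settings. On the same arrays every knockout lay above every control at Met and below every control at its ligand Hgf.

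Fgfr1, the FGF receptor typical of stromal cells, was lower at all 4 probes, and none passed. The differences were -0.47, -0.96, -1.47 and -1.5, with adjusted p in limma of 0.218, 0.0595, 0.0543 and 0.0977. The brightest probe (A_55_P2057777) lay at 1.93, 2.04 and 1.65 (an outlier spot) in controls and at 1.29, 1.5 and 1.76 in knockouts, where knockout replicate 3 reached above the outlier control. The next one (A_55_P2506940) lay at -0.87, -0.72 and -1.12 in controls and at -2.23, -1.76 and -1.60 in knockouts, without overlap. The other 2 probes were dim. They were well above background on all 3 control arrays, and on 2 (A_65_P11598) and 1 (A_52_P136162) of the 3 knockout arrays. Under alternative settings A_65_P11598 passed in 6 of 14 and A_55_P2506940 in 4 of 15, and the remaining Fgfr1 probes in none. The brightest probe differed less between genotypes than the next one, with a gap of 2.80, 2.76 and 2.78 in controls and of 3.52, 3.26 and 3.36 in knockouts (exact permutation p = 0.1).

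Fgfr2, the receptor through which FGF7 and FGF10 reach epithelium, had 1 testable probe (A_55_P2094881). It lay at -1.84 (an outlier spot), -1.84 and -2.40 in controls and at -3.0, -2.82 and -2.55 in knockouts. The groups did not overlap, but the highest knockout and the lowest control lay close together (difference -0.67, SE 0.25, adjusted p 0.166 in limma). A dimmer Fgfr2 probe was well above background in 2 controls and in no knockout and was not tested. Its groups overlapped, with control replicate 3 at -5.86 below knockout replicate 2 at -5.67. Fgfr3 showed no consistent order. Its brighter probe lay at -1.08, -0.21 and -0.36 in controls and at 0.15, -0.34 and -0.40 in knockouts (difference 0.36, SE 0.28, adjusted p 0.452 in limma). Its dimmer probe also differed by 0.36 (SE 0.38, adjusted p 0.582 in limma), and there knockout replicate 1 at -3.58 stood above the remaining 5 arrays, which lay between -5.14 and -4.54.

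Among the knockouts, replicate 1 lay farthest from the control mean at 14 of the 18 tested probes (77.8%), against 54.8% of all tested probes. That array had the lowest 75th percentile of signal (4910.5 intensity units, against 5774 to 7110.5 on the others) and the largest share of outlier spots (16.0%). Without control replicate 1 and knockout replicate 1, the arrays with the most outlier spots, 4 member probes were called, again of Hgf, Fgf7 and Fgf1.

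**Figure D3:**
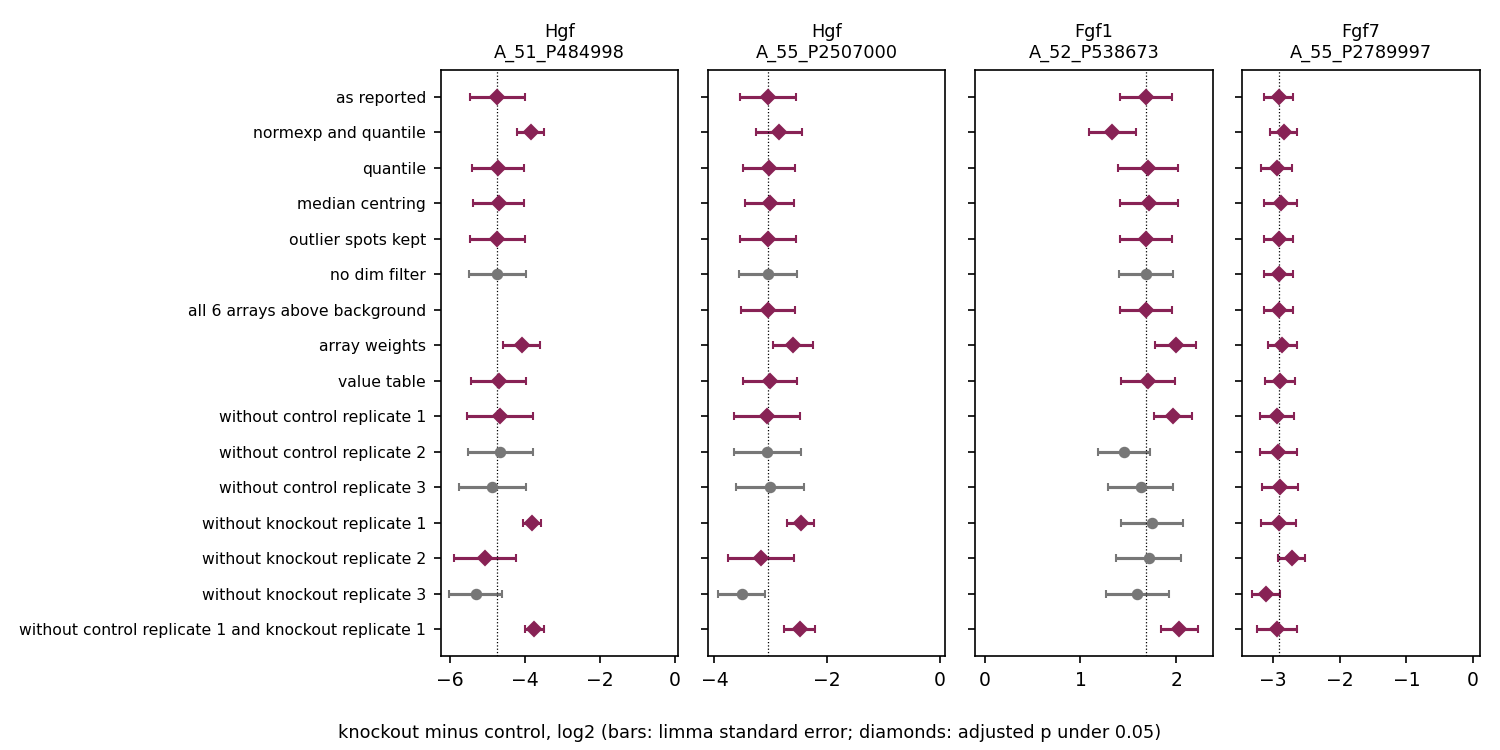
Knockout minus control (log2) with its standard error at the 4 called probes under the reported setting and each alternative; diamonds mark an adjusted p under 0.05, grey circles an adjusted p of 0.05 or more, and the dotted line the reported value. Every value kept its sign, and Fgf7 alone stayed called throughout.

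Further genes of these pathways were taken from 6 lists with 81 genes in all, also chosen with earlier results of these data known. Of the 81 genes 64 could be tested by their brightest probe. Of the 64 genes 3 were called, 1 lower and 2 higher, against 3.82% of 16451 named genes tested this way (2.47% lower and 1.35% higher). The gene called lower, Plau, was tested only because all controls were well above background. The median difference over the 64 genes was -0.19.

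Among 7 tested genes for the activation and inhibition of HGF, Plau fell. It encodes the urokinase plasminogen activator, a serine protease. Its signal lay at -4.44, -5.01 and -4.02 in controls and at -7.62, -7.83 and -6.84 in knockouts, where it was well above background on no array, so it was at least 2.02-fold higher in controls (adjusted p 0.0233 in limma). The other 6 were not called at their brightest probe, 5 of them with values above 0. The highest of them was Hgfac, the gene of the HGF activator, at 2.26 (SE 0.89, adjusted p 0.180 in limma). Also above 0 were Spint1 and Spint2, epithelial inhibitors of the proteases that activate HGF, at 1.22 (SE 0.46) and 0.57 (SE 0.26). St14, the epithelial protease matriptase, was at 1.80 (SE 0.56, adjusted p 0.104 in limma). A dimmer St14 probe (A_52_P459505) was called, with a difference of 1.89 (SE 0.38, adjusted p 0.0497 in limma). The Plau call did not survive the loss of control replicate 3, of knockout replicate 1 or of knockout replicate 3 (adjusted p 0.0510 to 0.0618; over all alternatives 0.0114 to 0.0618). The St14 call was lost whenever an array other than control replicate 1 was left out, with quantile normalization and without the filter on dim probes (adjusted p 0.0527 to 0.119; over all alternatives 0.0152 to 0.119).

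Among 9 tested MET family members and adaptors, Mst1r rose. It encodes RON, the receptor of macrophage-stimulating protein and the closest relative of MET. Its signal lay at 0.44, -0.25 and 0.23 in controls and at 1.72, 1.14 and 1.42 in knockouts (difference 1.29, SE 0.24, adjusted p 0.0446 in limma). The shared adaptors Grb2, Gab1, Shc1, Sos1 and Ptpn11 lay between -0.32 and -0.02 and were not called. Leaving out any array other than control replicate 1, or the filter on dim probes, ended the call of Mst1r (adjusted p 0.0514 to 0.119; over all alternatives 0.0132 to 0.119).

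The remaining genes of the FGF family gave 0 calls in limma among 10 tested (2 at an unadjusted p under 0.05). Their values ran from -1.09 (Fgf13) to 0.50 (Fgf8). The list goes by family name and is not restricted to genes of receptor ligands. A further 7 of the 17 listed genes were not tested, and 6 of the 17 were well above background on no array. Among 10 other FGF receptors, co-receptors and adaptors Fgfr4 rose, the FGF receptor that serves bile acid signalling in liver. It lay at -1.98, -2.66 and -1.66 in controls and at -0.92, -0.30 and -0.36 in knockouts (difference 1.57, SE 0.31, adjusted p 0.0462 in limma). The call was lost whichever array was left out, and without the filter on dim probes (adjusted p 0.0556 to 0.116; over all alternatives 0.0150 to 0.116). Leaving out control replicate 1 together with knockout replicate 1 ended the calls of Plau, Mst1r, Fgfr4 and the dimmer St14 probe as well (adjusted p 0.0576 to 0.0673 in limma).

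Genes that FGF and ERK signalling switches on gave 0 calls in limma among 12 tested (5 at an unadjusted p under 0.05), with 8 lower and 4 higher and a median of -0.40. Etv4 and Etv5, transcription factors induced by FGF receptors, were at -1.42 (SE 0.38, adjusted p 0.0800 in limma) and -0.88 (SE 0.23, adjusted p 0.0739 in limma). The Etv4 levels were -2.83, -2.13 and -2.0 in controls and -4.33, -3.02 and -3.87 in knockouts, without overlap. Spry1 was at -1.43 (SE 0.45, adjusted p 0.117 in limma), with levels of 1.04 (an outlier spot), 0.91 and 0.78 in controls and of -1.47, -0.12 and -0.16 in knockouts. Spry2 was at -0.40 (SE 0.23) and Dusp6, a phosphatase that switches off ERK, at 0.34 (SE 0.26), with adjusted p of 0.335 and 0.438 in limma. Spry4 had 1 usable value and was not tested. With its outlier spots kept it lay at -0.54, -0.66 and -0.29 in controls and at -2.92, -1.41 and -0.56 in knockouts, with overlap.

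Of 16 tested genes for heparan sulfate carriers and modifying enzymes 14 were lower, against 48.8% of named genes, with a median of -0.28. In limma 0 of them were called at the brightest probe and 6 had an unadjusted p under 0.05. A dimmer probe of Hspg2 (A_55_P1959648), which encodes the basement membrane proteoglycan perlecan, was called at -1.30 (SE 0.20, adjusted p 0.0319 in limma), whereas its brightest probe stood at -0.27 (SE 0.22). The call was lost without control replicate 2 or 3 and without knockout replicate 1 or 3 (adjusted p 0.0524 to 0.0924; over all alternatives 0.00900 to 0.0924).

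**Figure D4:**
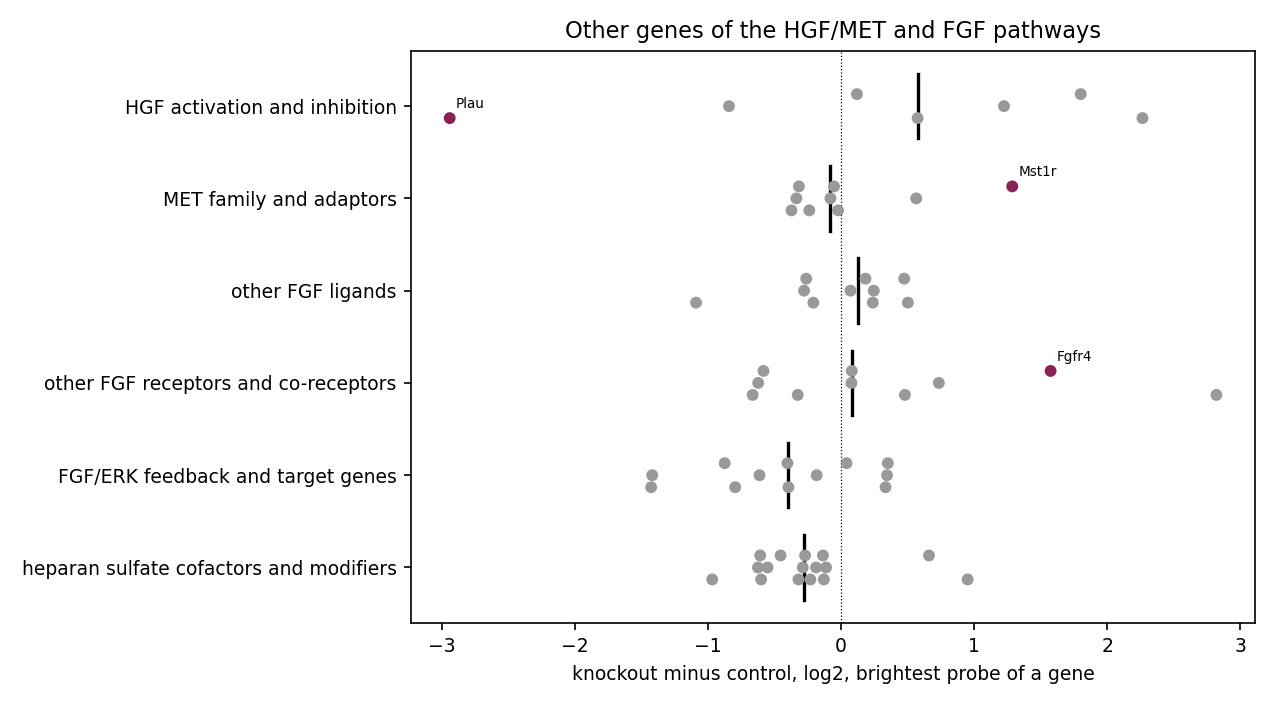
Knockout minus control (log2) of each of the 64 tested pathway genes at its brightest probe, by list; vertical bars are list medians and the named dark points are the called genes. Plau lies at -2.94, and Mst1r and Fgfr4 lie at 1.29 and 1.57. The list of other FGF ligands goes by family name and is not restricted to receptor ligands.

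The profiles most like those of Hgf and Fgf7 were sought among the brightest probes of 13353 other genes, by the root mean square difference of log2 levels over the 6 arrays after each profile was centred on its own mean. Nearest to Hgf were Bmp5 (0.22), a stromal bone morphogenetic protein, Dnmt3l (0.23), Nrg1 (0.32), a ligand of ERBB receptors, Ackr3 (0.32), a scavenging chemokine receptor, and the neutrophil gene S100a9 (0.36). For comparison, the Hgf profile had a root mean square of 1.64. Nearest to Fgf7, whose own root mean square was 1.48, were Tbx4 (0.29), a mesenchymal transcription factor, Ccl4 (0.31), Ccno (0.37), Npy (0.44) and the chemokine gene Ccl3 (0.45). Hgf itself ranked 33 in likeness to Fgf7 (0.59). All 10 genes were lower in the knockout, between -3.73 and -2.43, and 9 of them were called, Nrg1 having an adjusted p of 0.0547 in limma. The measure follows the genotype difference first, and Hgf and Fgf7 were themselves called lower. The direction and the calls of the 10 genes were thus largely set by their choice and are no separate result. The measure also says little on array-to-array variation within a genotype.

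Marker genes of cell types were examined on the same arrays. Of 73 tested at their brightest probe 8 were called, 6 lower and 2 higher. The shares over named genes were 3.82%, 2.47% and 1.35%. The neutrophil list held 5 of the 8 calls. At any size 47 of the 73 were lower, against 48.8% of named genes. Of all tested probes 26.8% had an unadjusted p under 0.05 in limma. These shares give scale only. All 10 tested fibroblast markers were lower, with a median of -0.52 and 1 call (Pdgfrb, -1.17). The summed level of the 12 fibroblast markers was 58.7 to 64.9 in controls and 34.5 to 50.3 in knockouts, in multiples of the 75th percentile. All 9 tested epithelial markers were higher, with a median of 1.16 and 0 calls in limma (2 at an unadjusted p under 0.05), and the summed level of the 11 was 21.8 to 73.3 in controls and 84.3 to 109.8 in knockouts. The 7 tested endothelial markers were lower (median -1.36, 0 calls and 6 at an unadjusted p under 0.05 in limma, summed level of 8 markers 9.52 to 11.0 in controls and 2.61 to 6.42 in knockouts).

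Neutrophil markers were lower at 6 of 7 tested genes, with 5 calls and a median of -1.93. The summed level of 9 markers was 24.0 to 25.6 in controls and 17.2 to 19.1 in knockouts. Csf3r, the brightest tested marker of the list, was higher (0.17) and made up a large part of that sum. The sum also holds Ly6g, which was well above background on all 6 arrays but was not tested, so the count of 6 of 7 leaves it out. What the sum holds beyond the 7 tested genes was larger in every knockout than in every control. The lower neutrophil markers therefore do not speak for the whole list. Of the 9 listed, 1 was well above background on no array. Macrophage markers were lower at 6 of 7 (median -0.75, 0 calls and 4 at an unadjusted p under 0.05 in limma, summed level of 8 markers 18.2 to 26.5 in controls and 12.3 to 16.5 in knockouts). Smooth muscle markers were higher at 6 of 6 (median 0.36, 0 calls and 1 at an unadjusted p under 0.05 in limma, summed level of 8 markers 45.1 to 55.4 in controls and 61.6 to 71.7 in knockouts). In the skeletal muscle list 2 of 7 genes were called, both higher. Myh1 differed by 2.07, and Myh2, which was well above background on no control array, was at least 4.61-fold higher in knockouts. The lists of T cells, B and plasma cells, enteric neurons and glia, and mesothelium gave 0 calls in limma, with medians from -0.88 to -0.21 and 0 to 2 genes each at an unadjusted p under 0.05. The part of cell makeup in the results was not tested.

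**Figure D5:**
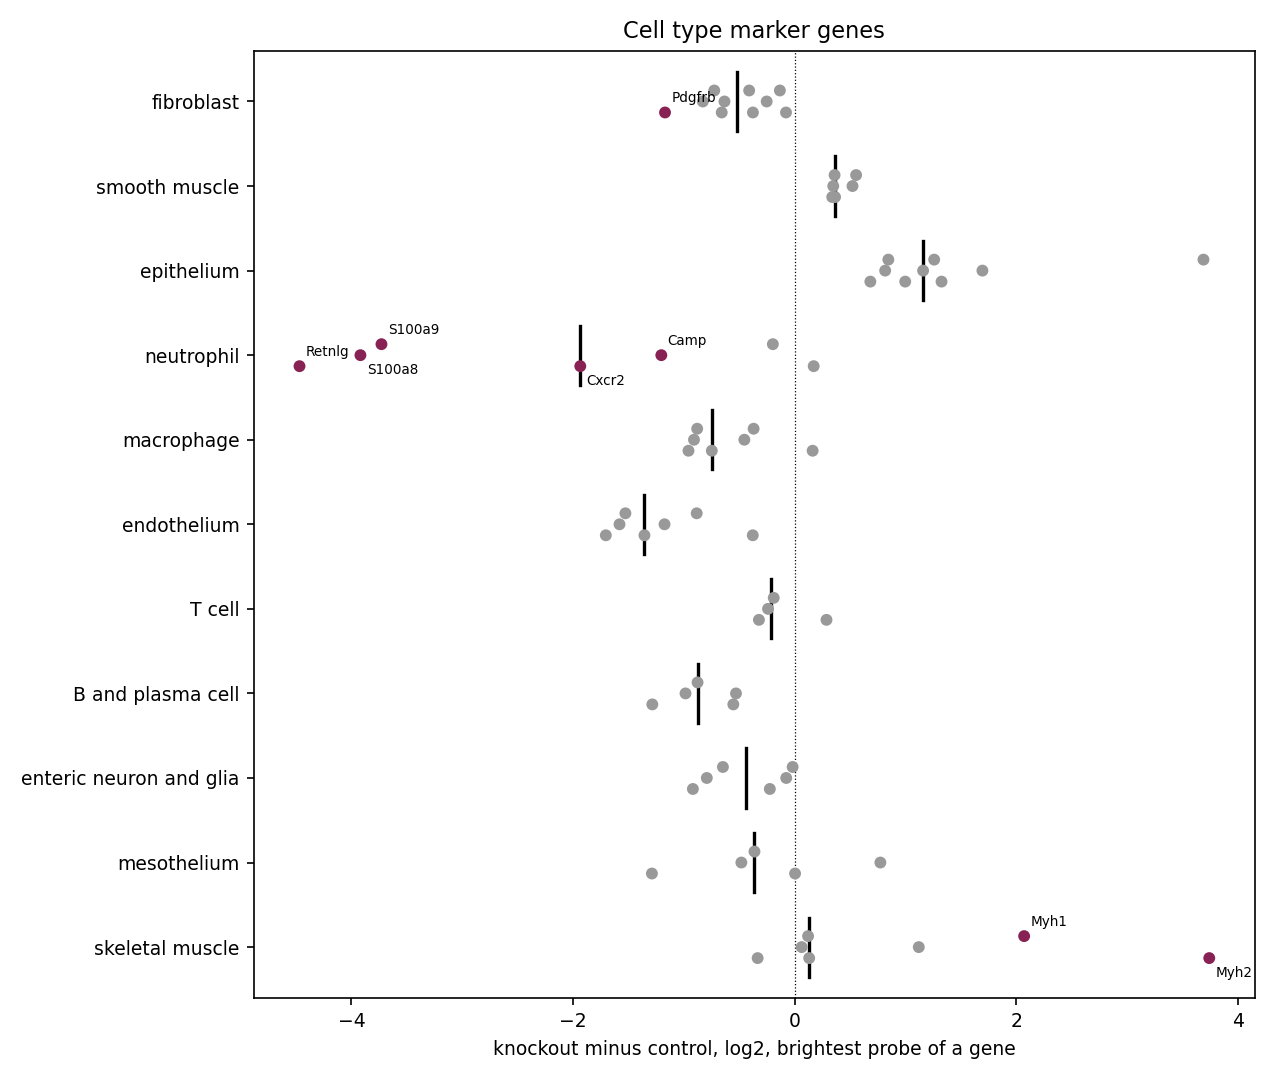
Knockout minus control (log2) of each tested marker gene at its brightest probe, by cell type; vertical bars are list medians and the named dark points are the called genes. Fibroblast markers lie at -1.17 to -0.08, endothelial ones at -1.7 to -0.38 and epithelial ones at 0.68 to 3.69.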

How the data were processed

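The labels give 3 control and 3 Islr knockout colon samples, 1 array each. Replicate numbers only name the animals. Agilent Feature Extraction 11.5.1.1 read the scans, per the file headers; the submitters' processing notes name version 10.7. The labels name Cy3 and a green signal, whereas each file holds the red channel alone, which was used. The deposited processed signal is a background-subtracted intensity on a linear scale, per the file headers, with no scaling between arrays. A value table of the series holds the same deposited intensities (log2 correlation of at least 0.9999993) and was used as an alternative.

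From each log2 processed signal the log2 of the 75th percentile of that array (59305 non-control spots) was subtracted. Spots marked non-uniform or population outlier were missing (3.26% to 16.0% of an array), and repeated spots were averaged. Tested were the 35351 of 56605 probes that exceeded background clearly on every array of at least 1 genotype and had 2 or more usable values for both. limma 3.58.1 (lmFit, eBayes; R 4.3.3) tested genotype, two-sided, with Benjamini-Hochberg adjustment over all tested probes at 5%. The precision is limited by the number of arrays. Where a genotype had no array above background, the bound used, per array, the higher of the probe's signal and the lowest signal above background. Probes were named through their RefSeq accession on GRCm38.p6 (33767 of 56605 matched); the files place probes on mm9, so no probe coordinates are given. The fitting procedure was tested on simulated data.

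Named are Islr, all member probes, called genes of the pathway lists, 6 feedback and target genes (Spry1, Spry2, Spry4, Dusp6, Etv4 and Etv5), and the 5 genes most like Hgf and Fgf7; other pathway and marker genes, St14 and Hspg2 probes included, were chosen with their values in view. The members and lists were chosen with earlier results of these data known. Alternatives were normexp with quantile normalization (offset 50), quantile normalization, median centring, outlier spots kept, no filter on dim probes, a filter on all 6 arrays, array weights, the value table, each array left out and, chosen after seeing the data, control replicate 1 and knockout replicate 1 left out together.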

Additional observations from a re-analysis of the deposited data

How the results depend on the processing

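The differences at the 18 tested member probes were recomputed under up to 15 alternatives, 254 values in all: 209 kept their direction and side of the threshold, 26 passed it where the reported one did not, 14 no longer passed and 5 changed sign. The sign changes were at Fgf9 without control replicate 2 (-0.13), at the dimmer Fgfr3 probe with array weights (-0.044), without knockout replicate 1 (-0.066) and without control replicate 1 and knockout replicate 1 (-0.24), and at the brighter Fgfr3 probe without those 2 arrays (-0.082). With 1 or both of these arrays or any other array left out, Fgf9 ranged from -0.13 to 0.71, the dimmer Fgfr3 probe from -0.24 to 0.62 and the brighter from -0.082 to 0.53. At the other 21 named probes, 310 values held 0 sign changes.

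The number of probes called depended on the setting: 1403 as reported, 2773 with normexp and quantile normalization, 2185 with quantile normalization, 2249 with median centring, 484 without the filter on dim probes, 7320 with array weights, 2274 with the value table and 40 to 2114 with an array left out. The share of calls that were higher was 39.1% as reported, 49.7% with array weights, 55.1% without control replicate 1 and 10% without knockout replicate 3. In the same order, 4 member probes were called as reported, then 9, 8, 8, 1, 11 and 7, and 1 to 5 with an array left out. By the brightest probe 2 member genes were called as reported, 4 with normexp, 1 without the filter, 5 with array weights and 1 to 3 with an array left out; with the probe of lowest adjusted p there were 3. Of the pathway genes 3 were called as reported, 7 with normexp, 6 with median centring, 5 with outlier spots kept, 19 with array weights, 5 with the value table and 0 to 3 with an array left out. Islr differed by -2.39 without knockout replicate 3. With an array left out it ranged from -2.58 to -2.34 over the 4 omissions that left it testable. Without control replicate 2 or 3 it had too few usable control values. The causes were not tested, except that leaving out an array leaves fewer values. No paired analysis was possible because the labels carry no replicate numbers that the groups share. Signal over background limits the dimmer Hgf probe, Fgf2, 2 Fgfr1 probes and Plau, whose knockout values lay partly or wholly near background.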
